A study of Oryza sativa with 3 samples.

Results

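The genes of rice chromosome 11 were followed in the order in which they lie along the chromosome. They were chosen by position and signal: a probe set listed with 1 gene, the gene on chromosome 11 of the Japonica assembly ASM3414082v1, the probe set with the highest mean where a gene had several, and a mean log2 signal over the 3 arrays above the median of all signals. That median, 5.505 on the log2 scale (45.4 in linear signal), also served as a floor to which lower signals were raised. Of 846 chromosome 11 genes with a probe set, 611 met the rule and 235 did not, among 14396 genes measured on the 12 chromosomes. The chromosome was singled out from earlier results of these data, which used the differences of both lines from the control. Values of that contrast are therefore given as a description, with no test.

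The arrays measured RNA from leaves of rice aged 6 weeks. The control was 1 array of untransformed Guichao2, an indica cultivar, and the other arrays were 1 each of the lines B10201 and B10301, which are Guichao2 with an OsEBS transgene. Each array held 10 plants, grown untreated at 28 °C under a day of 14 h and a night of 10 h. OsEBS is known as a gene linked to plant biomass and spikelet number. The promoter of the transgene and the generation of the plants are not given in the sources used here. Both lines were set against the same single control array, so anything particular to that array enters both comparisons. A difference between the control plants and both lines cannot be told apart from an effect of the transgene, and the number of arrays limits the precision. In leaf RNA, fewer cells of a type and less RNA per cell cannot be told apart either.

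Rice chromosome 11 is known for clusters of disease resistance genes of the nucleotide-binding, leucine-rich repeat kind, which recognise pathogen proteins and vary in presence and sequence between cultivars. One end of the chromosome shares a duplicated segment with the same end of chromosome 12, so transcripts from both copies can be close in sequence. The array carries 3' probe sets, and a probe set reads the transcript only where its letters match, which is a general property of such arrays. Probe sets with the suffixes x_at and s_at may bind transcripts of several genes.

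Over all probe sets, array medians were 5.41 (control), 5.56 (B10201) and 5.54 (B10301). Over the chromosome 11 genes the medians were 9.53, 9.41 and 9.39. In 2 stretches of the value table, of 6717 and 988 rows, the B10301 values lay 1 row below their own probe set and were moved back. The correlation with the mean of the other arrays, across probe sets, went from 0.397 to 0.939 in the longer stretch and from 0.051 to 0.823 in the shorter one. The move concerned 110 of the 611 genes. Of the leaf genes fixed as markers, 4 of 5 lay above the floor, with medians of 14.46 (control), 14.70 (B10201) and 14.81 (B10301). Genes fixed as markers of other organs were not all at the floor: 4 of 9 seed genes, 7 of 10 genes on the root list and 11 of 31 MADS-box genes lay above it. Their medians over the 3 arrays ran from 5.38 to 5.49 for seed, 6.21 to 6.84 for root and 4.91 to 5.35 for the MADS-box genes. The highest single gene of each list reached 12.6 (seed), 12.6 (root) and 13.6 (MADS-box). The part of other organs in the results below was not tested.

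With the floor and filter used here, signals of chromosome 11 genes often stood apart from the control in both lines together. They stood apart much less often between the lines. With neither filter nor floor that contrast narrowed to 20.9% and 19.4% of genes. A gene is called here when its log2 ratio to the control is at least 1 (2-fold) in the same direction in both lines. On chromosome 11, 78 of 611 genes were called, or 12.8%. Of these, 32 were higher and 46 lower than the control. Over all 14396 genes 4.61% were called, with 2.0% higher and 2.61% lower; on chromosome 11 the shares were 5.24% and 7.53%. The other chromosomes ranged from 2.51% to 7.35% called, chromosome 12 having the highest of these and chromosome 5 reaching 5.70%. With 4.24% of the genes measured, chromosome 11 held 11.7% of the genes called. Since the chromosome was taken up for this contrast, the gap between those shares is not independent evidence.

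Each line taken alone also had a raised share. Both ratios use the same control array and the chromosome was chosen on both lines, so the 2 shares are not separate evidence. In B10201, 106 of the 611 genes (17.3%) passed 2-fold against the control, as did 9.11% of all genes. In B10301 it was 100 genes (16.4%), and 8.28% of all. No chromosome 11 gene was 2-fold higher in one line and 2-fold lower in the other, and only 5 of all 14396 genes (0.0347%) were. Such genes were rare everywhere, so their absence here is no trait of chromosome 11.

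The difference between the lines does not use the control signal, but the filter, the floor and the choice of probe set do. Between B10301 and B10201, 24 of the 611 genes (3.93%) differed by 2-fold or more. B10301 had the higher signal in 13 of them and the lower in 11. Over all genes the share was 4.15%, and over the other chromosomes 3.17% to 5.13%. Chromosome 11 thus ranked 1 of 12 by share of genes called against the control and 7 of 12 by share of genes differing between the lines. That position depended on the settings: with neither filter nor floor 19.4% of chromosome 11 genes differed between the lines, against 14.9% elsewhere, and at a 1.5-fold threshold 13.7% against 11.7%. Each line had 1 array, so neither share could be tested against replicate error.

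**Figure D1:**
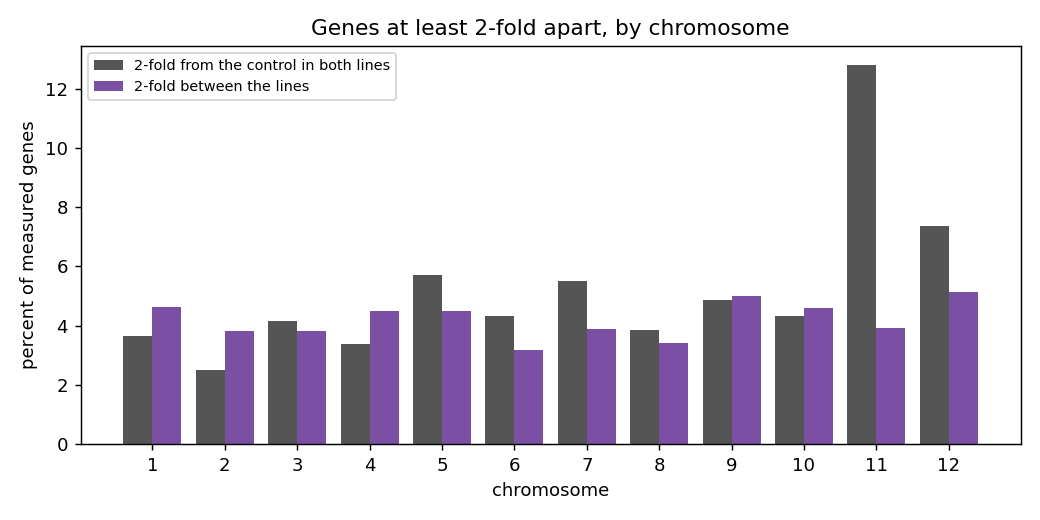
Percent of measured genes called, that is 2-fold or more from the control in each line (grey bars) and at least 2-fold apart between the 2 lines (purple bars), for each of the 12 chromosomes, with 1 array per sample and no error bars. The grey bar of chromosome 11 stands at 12.8%, against 7.35% for chromosome 12 as the next, while its purple bar of 3.93% lies inside the range of the others.

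For the called genes the gap between the lines was smaller than the distance from the control, which the definition of a call largely fixes. The median gap between the lines was 0.31 on the log2 scale over the 78 genes, against a median distance from the control of 1.80. That gap was wider than the median over all 611 genes, 0.19, and 4 of the 78 differed at least 2-fold between the lines. Across all 611 genes the median absolute mean ratio was 0.39, against 0.29 on the other chromosomes, and the 90th percentile 1.32 against 0.86. The median absolute difference between the lines on the other chromosomes was 0.18. The median signed ratio stayed near 0, at -0.07 in B10201 and -0.02 in B10301, against -0.02 and -0.01 over all genes.

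As the fold required was raised, the share on chromosome 11 divided by that on the other chromosomes went from 3.01 at 2-fold to 6.08 at 4-fold and 8.08 at 8-fold, while the shares themselves and the gap between them shrank. At least 4-fold in both lines were 24 of the 611 genes (3.93%), against 0.785% of all genes. At least 8-fold were 10 genes (1.64%), against 0.264%. Of the 38 genes at this size in the whole table, 12 lay on chromosome 5, 10 on chromosome 11 and 5 on chromosome 12. These ratios describe the contrast for which the chromosome was taken up and are not independent evidence. Several of the 10 genes were under the floor in the control. Among chromosome 11 genes left out by the filter, 33 were above the floor in the control alone and 7 in both lines but not the control.

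The called genes were also counted by level of signal. All measured genes were ranked by mean signal and cut into 3 equal groups. In the group of lowest signal, up to 8.84, 48 of 260 chromosome 11 genes were called (18.5%), against 7.36% on the other chromosomes. In the middle group 16 of 196 were called (8.16%), against 3.37%, and in the group above 10.71, 14 of 155 (9.03%), against 2.09%. Between the lines the same groups gave 8.85%, 0% (0 of 196) and 0.645% on chromosome 11, and 9.05%, 2.17% and 1.36% elsewhere.

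Of the 32 genes called higher, 14 were at the floor in the control, so their ratios are lower bounds. On the other chromosomes it was 53 of 256, a smaller part of the genes called higher. None of the 46 called lower was at the floor in both lines, against 11 of 330 on the other chromosomes, and 6 were at the floor in 1 line. The filter bears on this contrast, since a mean over 1 control and 2 line arrays keeps genes high in both lines alone more readily than genes high in the control alone. Probe sets ending in x_at or s_at stood for 5 of the 78 called genes and for 70 of the 611 (11.5%). Among the 110 genes whose B10301 value had been moved 14 were called (12.7%), and among the other 501 genes 64 (12.8%).

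Called genes were spread along nearly the whole chromosome, with gaps. Cut into 10 segments of 61 or 62 genes, the chromosome held between 2 and 13 called genes per segment. Segment 10, the last, had 13 of 61 (21.3%), 10 of them lower than the control, and segment 4 had 11 of 61 (18.0%), 7 lower. Segment 2 had 2 of 61 (3.28%). In segment 1, 6 of 8 called genes were higher, whereas in segment 7, 5 of 6 were lower. The genes that differed between the lines numbered 1 to 6 per segment, with most in segment 6.

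**Figure D2:**
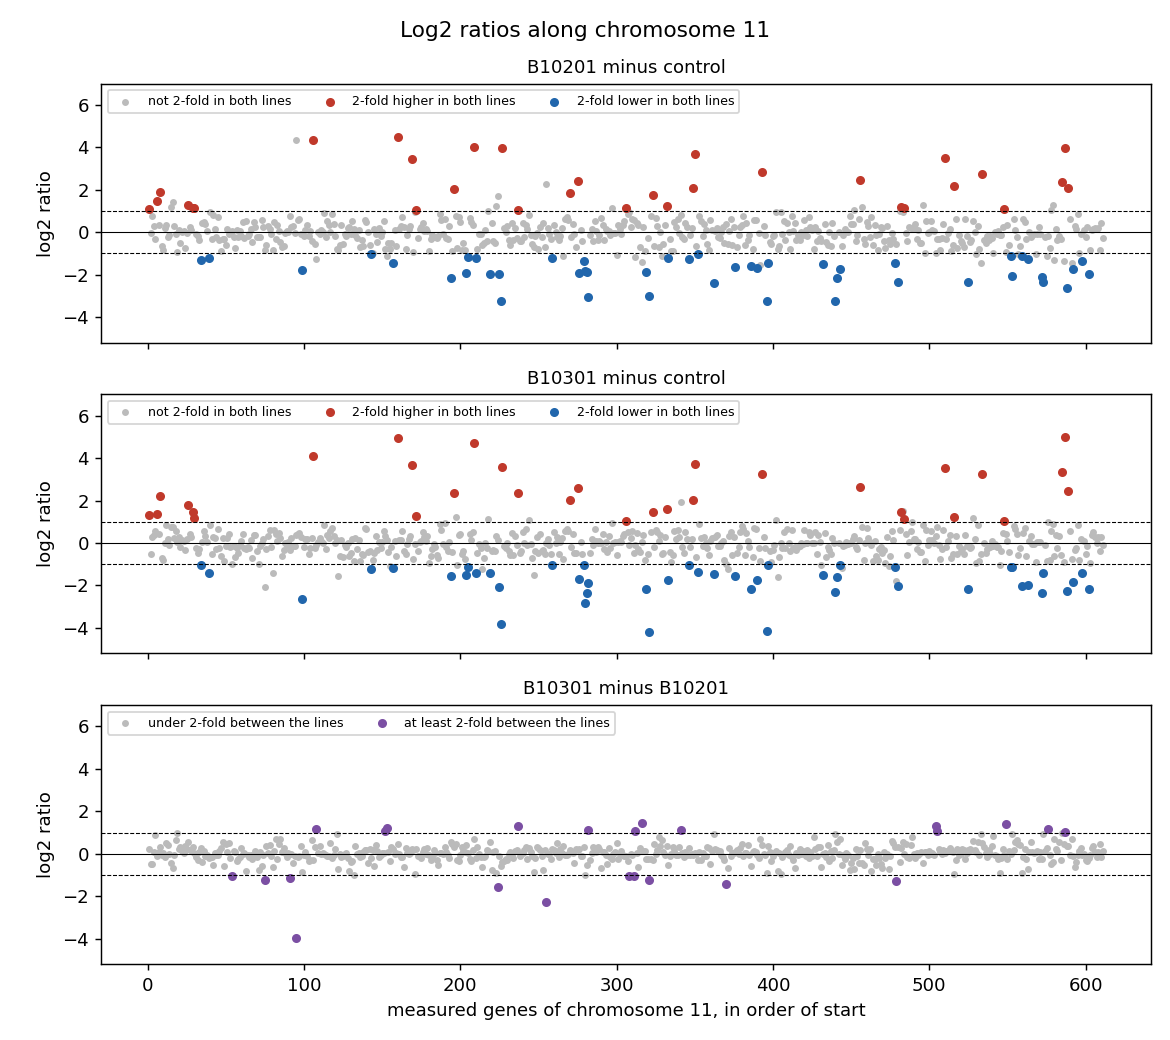
Log2 ratios of the 611 measured genes of chromosome 11 in order of start: B10201 minus control (top), B10301 minus control (middle) and B10301 minus B10201 (bottom), each point 1 gene and dashed lines at 2-fold. Called genes (red higher, blue lower) recur along the chromosome at like height in the top and middle panels, and the bottom panel holds 24 genes past the dashed lines.

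The longest stretch without a called gene ran over 59 measured genes, from LOC4349640 to LOC4349806, and it lay between the called genes LOC4349638 and LOC4349807. Its median absolute mean ratio was 0.26, and 3 of its genes passed 2-fold in 1 of the lines. Further stretches without a call held 36 genes (LOC4349824 to LOC4349901) and 34 genes (LOC4350655 to LOC4350713). On every other chromosome the longest such stretch was longer, from 75 genes on chromosome 12 to 233 on chromosome 2, where called genes were also fewer per gene measured.

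In non-overlapping bins of 20 consecutive measured genes, 13 of 30 bins on chromosome 11 held at least 3 called genes (43.3%). The same held for 7 of 36 bins on chromosome 12 (19.4%), 11 of 61 on chromosome 5 (18.0%) and 8 of 55 on chromosome 7 (14.5%). The densest window of 20 on chromosome 11 had 7 called genes, as on chromosomes 5 and 10. Chromosome 7 had a window with 9, so the single densest window of the genome was elsewhere. Without B10301 the densest window of chromosome 11 held 12 genes 2-fold from the control, and without B10201 it held 8.

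**Figure D3:**
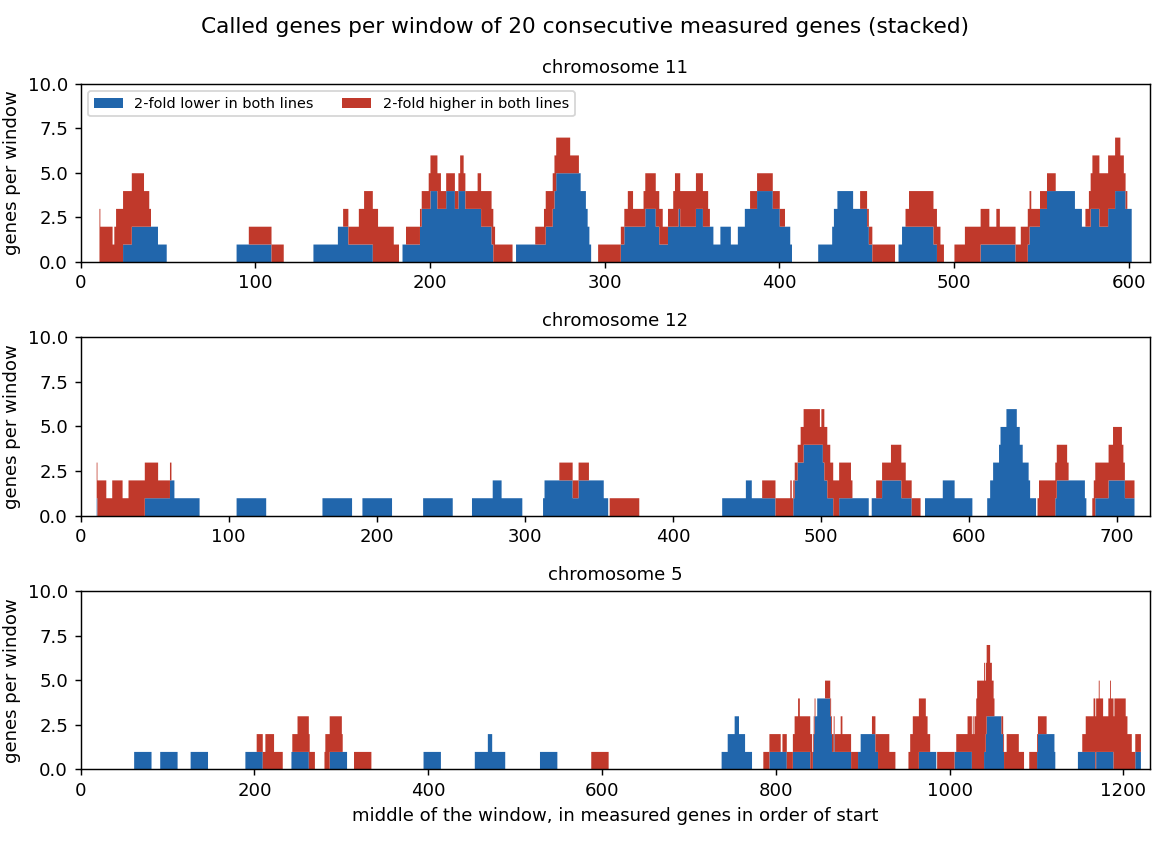
Number of called genes in sliding windows of 20 consecutive measured genes, plotted at the middle of the window, for chromosomes 11, 12 and 5, with genes lower in both lines in blue and genes higher in both lines stacked on top in red. Peaks of 4 to 7 genes recur along chromosome 11, while on chromosomes 12 and 5 they lie mostly in the later part of the gene order.

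Called genes often followed each other in the measured order. Of the 78, 17 were followed by another called gene as the next measured one (21.8%). The share was 19.7% on chromosome 7, 15.1% on chromosome 12 and 10.0% on chromosome 5. Such a share also grows with the share of genes called, which was 12.8% on chromosome 11 and 5.51% on chromosome 7. With a single line the number was 28 in each case, from more genes past 2-fold. The 17 neighbouring pairs comprised 9 with both lower, 2 with both higher and 6 of opposite direction. They formed 10 runs of 2 genes, 2 of 3 and 1 of 4, which took in 30 of the called genes, and 48 stood alone.

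The run of 4 closed the densest window, from LOC4350243 to LOC4350299, and all 4 of its genes were lower in both lines. LOC4350285 had log2 signals of 9.47 (control), 8.13 (B10201) and 8.45 (B10301), the order kept for all values below, and LOC4350287 had 11.34, 9.52 and 8.54. LOC4350288, next to it in the gene table with no gene between, had 7.88 and 6.02 in the control and B10201 and was under the floor in B10301 (5.05). LOC4350299 had 8.62, 5.57 and 6.71. In each of these genes the control was the highest array by at least 2-fold, which a call as lower requires. Mean log2 ratios were -1.18 ± 0.23, -2.31 ± 0.70, -2.12 ± 0.36 and -2.47 ± 0.81 in that order (SD, n = 2 lines). The value of LOC4350288 is a bound on the B10301 side, and LOC4350285 was not called after quantile normalization.

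Genes a few places earlier in the same window went both ways. LOC4350255 stood at 11.26, 13.12 and 13.29, and LOC4350270 at 10.12, 12.51 and 12.69. LOC4350271 is the gene directly after LOC4350270 in the gene table and differed in the opposite direction, at 10.08, 8.14 and 8.38. Thus 2 adjacent genes differed from the control by mean log2 ratios of 2.48 ± 0.13 and -1.82 ± 0.17 (SD, n = 2 lines). With B10301 as deposited, LOC4350255 and LOC4350271 were not called. Between them and the run of 4 lay LOC4350275 and LOC4350281, which were not called. The window also holds CLPC3 (LOC4350258), a symbol of chaperone subunits of the chloroplast Clp protease, and the mitogen-activated protein kinase MPK15 (LOC4350264), with mean ratios of -0.27 and -0.57.

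Near the far end of the gene order, the window from LOC4351127 to LOC4351217 also held 7 called genes, 3 higher and 4 lower. LOC9268076 was near the bottom of the scale in the control (1.39) and high in B10201 (9.46) and B10301 (10.49), at least 15.5-fold and at least 31.7-fold above the control. Its other probe set, at 2.36, 7.12 and 7.63, went the same way with smaller bounds. Its log2 ratios were at least 1.62 in B10201 and 2.13 in B10301, against at least 3.95 and 4.99 for the chosen probe set. LOC4351143, 2 measured genes before LOC9268076, had 5.85, 8.22 and 9.21. Between these genes LOC4351146 had lower signals in the lines, 5.56 and 6.01 against 6.92, and was not called.

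ACLA-2 (LOC9272295), the symbol of a subunit of ATP-citrate lyase, which makes acetyl-CoA in the cytosol, had 8.52, 10.61 and 10.98, a mean ratio of 2.28 ± 0.27 on the log2 scale (SD, n = 2 lines). The measured gene just before it, LOC4351174, went from 9.03 to 6.39 and 6.77, and LOC4351197, 3 measured places after it, from 8.01 to 6.26 and 6.18. MT1A (LOC4351213), a metallothionein, one of the small cysteine-rich proteins that bind metals, had the second highest control signal of the 611 genes, at 15.21, 13.85 and 13.82. It was lower by 2.56-fold in B10201 and 2.62-fold in B10301. LOC4351217 closed the window at 9.16, 7.20 and 7.02.

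The window with the next count, from LOC4350030 to LOC4350078, held 6 called genes. LOC4350075 was just under the floor in the control (5.498) and at 9.504 and 10.23 in the lines, higher by at least 4.72 on the log2 scale in B10301 (at least 26.4-fold), and the next measured gene, LOC4350078, was lower, at 9.52, 8.30 and 8.10. Adh2 (LOC4350054), an alcohol dehydrogenase, of the enzymes that turn acetaldehyde into ethanol when oxygen is short, had 8.33, 6.41 and 6.82, lower by 2.86-fold in B10301 and 3.80-fold in B10201. LOC4350055, directly after Adh2 in the gene table, had 12.06, 10.90 and 10.95. Both of these neighbours were lower, by unequal amounts. LOC4350038 had 5.46, 7.56 and 7.88, with a further probe set at 5.93, 6.32 and 6.38, a difference in the same direction but far smaller. LOC9269958 went from 7.64 to 3.21 in B10201, under the floor, and to 6.08 in B10301.

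**Figure D4:**
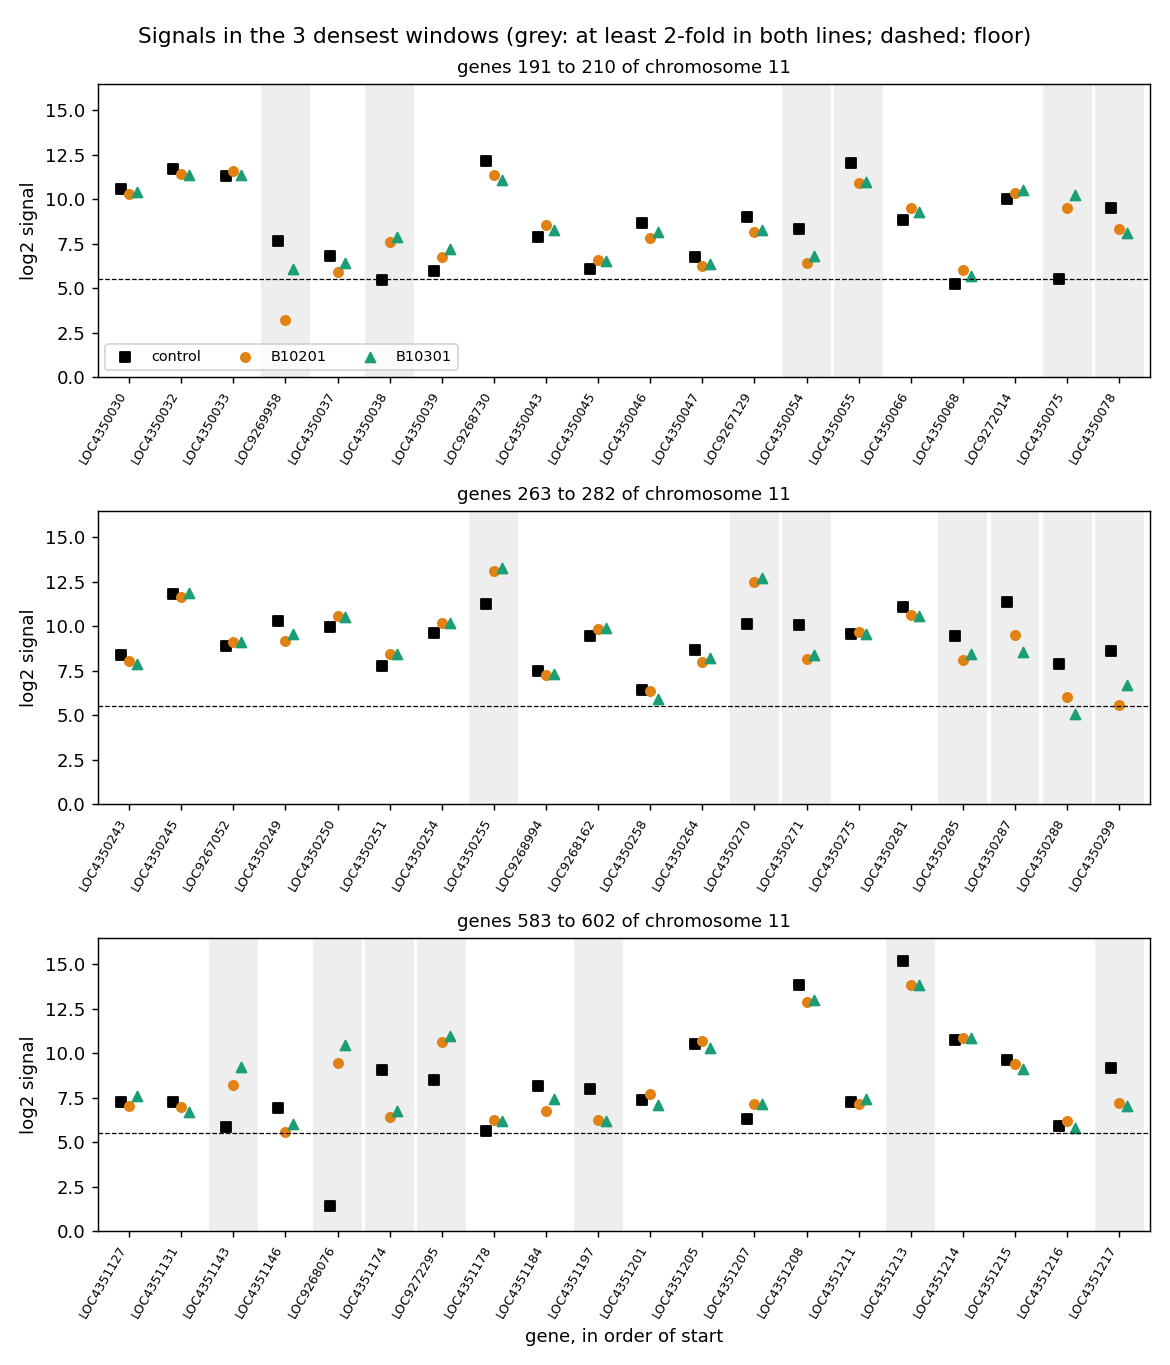
Log2 signals in the control (black squares), B10201 (orange circles) and B10301 (green triangles) for the 20 measured genes of each of the 3 densest windows, in order of start, with called genes shaded grey and the floor of 5.505 dashed. In the shaded genes both lines lie on the same side of the control, as a call requires, and each window holds both higher and lower genes.

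The largest differences lay in other places of the chromosome too. LOC4349948 stood at 5.67, 10.18 and 10.64, or 22.7-fold and 31.4-fold, the highest mean ratio among genes above the floor in the control. LOC4349819 was under the floor in the control (4.27) and at 9.86 and 9.59 in the lines, at least 20.5-fold and at least 17.0-fold. LOC4350912 was nearest to no signal in the control (0.59) and had 9.01 and 9.06, at least 11.4-fold and at least 11.8-fold. These genes were alike in having little or no signal in the control alone. LOC4350644 (2.95, 8.36 and 8.76) and LOC4350779 (5.44, 7.95 and 8.14) followed the same pattern, the latter with a further probe set at 3.65, 6.66 and 7.07.

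Other genes were well expressed on every array and still differed by several fold. LOC4350516 stood at 8.77, 12.44 and 12.48, or 12.8-fold and 13.2-fold, and the measured gene before it, LOC4350509, at 8.28, 10.38 and 10.33. LOC4349985 had 8.60, 12.03 and 12.27, and LOC4350979 had 10.36, 13.12 and 13.61. In these 4 genes the gap between the lines was at most 0.49, far smaller than their distance from the control.

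On the lower side, LOC4350406 started from a high level, 13.22 in the control, and stood at 10.24 and 9.02 in the lines, 7.90-fold and 18.4-fold lower. LOC4350650 had 9.65 and 6.43 in the control and B10201 and was under the floor in B10301 (4.47), at least 17.7-fold lower there. The measured gene after it, LOC9270214, was lower as well (8.52, 7.08 and 7.46). In a further run, LOC9271293 (10.42, 8.47 and 8.36) and LOC9266242, annotated as a pseudogene (9.64, 6.39 and 5.83), were lower and the next measured gene, LOC4350133, was higher, from 3.97 to 9.48 and 9.10. These 3 genes are neighbours among measured genes only: the gene table has 22 genes between the first and the second and 17 between the second and the third. Further genes with large differences on this side were LOC4350731 (9.61, 6.38 and 7.32), LOC4350958 (12.85, 10.52 and 10.71), LOC4351076 (s_at, 10.97, 8.88 and 8.63), LOC4350823 (10.04, 7.69 and 8.01) and LOC4350404 (10.47, 8.57 and 8.32).

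At the near end, 8 of the first 39 measured genes were called, 6 higher and then 2 lower. The very first, LOC9268937 (5.32, 6.58 and 6.81), and the sixth in order, LOC4349539 (5.24, 6.96 and 6.87), were read by x_at probe sets, which may bind other transcripts. A further probe set of LOC9268937, without that suffix and with a mean not above the floor, had 4.43, 5.53 and 6.41. Its log2 ratios were 0.03 in B10201 and 0.91 in B10301, under 2-fold in both. LOC4349541 had 8.52, 10.40 and 10.73. The adjacent genes LOC4349607 and LOC4349608 were higher by nearly equal amounts, with mean log2 ratios of 1.29 ± 0.22 and 1.17 ± 0.01 (SD, n = 2 lines). After them LOC4349616 (-1.18) and SCR1 (LOC4349638) were lower. SCR1, a SCARECROW transcription factor of the kind that patterns the cell layers of root and leaf, had 7.47, 6.23 and 6.05.

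A name other than a locus number was listed for 63 of the 611 genes, and 7 of these were called, 1 higher and 6 lower. Over all 611 genes 78 were called (12.8%), 32 higher and 46 lower. Named genes were thus not called more often, and 7 genes are too few to compare directions. Besides ACLA-2, MT1A, Adh2 and SCR1, the called genes with a name were KIN7L, OsCASPL1U2 and GRXC10. KIN7L (LOC4350714), a kinesin motor protein, had 7.01 and 5.52 in the control and B10201 and was under the floor in B10301 (5.38). OsCASPL1U2 (LOC4351034), of the CASP-like membrane proteins, had 9.56, 7.49 and 8.42, and the called gene before it in the measured order, LOC4351031 (s_at), had a mean log2 ratio of -1.11. GRXC10 (LOC4351046), a glutaredoxin, of the small thiol enzymes that use glutathione, had 8.78, 7.66 and 6.75. All 3 were called lower and so were highest in the control, and the last 2 differed between the lines by nearly 2-fold in opposite directions.

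The other 56 named genes were not called. Rubisco activase (rca, LOC4351224), which keeps the carbon-fixing enzyme active in leaves, had signals of 15.40, 15.57 and 15.93, and TATB (LOC4350785), of the thylakoid protein import machinery, 13.09, 13.39 and 13.35. The chalcone synthase CHS1 (LOC4350636), the first enzyme of flavonoid synthesis, had 13.94, 14.51 and 14.61. These genes were slightly higher in the lines. PDIL1-1 (LOC4350002), a disulfide isomerase of the endoplasmic reticulum, had 14.45, 13.56 and 13.49, close to the 2-fold line on the lower side. RAB21 (LOC4350454) and RAB16C (LOC4350452), dehydrins of the response to abscisic acid and drought, had mean ratios of -0.89 and -0.37. The response regulator RR9 (LOC4349747), of cytokinin signalling, differed little, at 0.30 ± 0.41, and the autophagy gene ATG8D (LOC4349525) stood at -0.26 ± 0.34 (SD, n = 2 lines).

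The 5 gene families looked up by symbol had few measured members on chromosome 11. Only 63 of its 611 genes had a name to match. The metallothionein list held MT1A alone, 1 called of 1, against 1 of 7 on all chromosomes, which is the same gene. Of 5 transcription factors above the floor none was called, with medians of -0.29 in B10201 and -0.37 in B10301, against 4 of 89 called and medians of 0.10 and -0.15 on all chromosomes. MYBAS1 (LOC4351184), a MYB factor, came nearest, at 8.17, 6.73 and 7.42, followed by JAMYB (LOC4351131), a MYB factor induced by jasmonate, at 7.26, 6.95 and 6.68. OsNAC5 (LOC4349963), a NAC factor of stress responses and leaf senescence, had 10.46, 10.71 and 10.09. The transporter list held SWEET14 (LOC4350572, x_at), a sugar exporter known as a target of bacterial blight effectors, at 8.62, 8.07 and 7.42, where 4 of 79 transporters were called on all chromosomes. Of the resistance genes matched by symbol, 1 on chromosome 11 had a probe set, and of the xylanase inhibitors and chitinases 3 had one. None of these had a mean above the floor. Genes known only by a locus number were not searched for these families. On all chromosomes 0 of 4 and 2 of 7 measured genes of these lists were called.

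Differences between the lines on this chromosome were led by genes high in B10201 only. LOC4349792 was at 4.40, 9.87 and 5.89, and it lies inside the longest stretch without a called gene. LOC4350213 had 4.77, 7.78 and 4.59, and LOC4350103 had 5.77, 7.48 and 5.92. In these 3 genes the control and B10301 were within 0.39 of each other once signals were raised to the floor. LOC4350570 (6.95, 7.36 and 5.94) and LOC4350822 (8.31, 7.77 and 6.51) were instead lowest in B10301.

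The genes most above B10201 in B10301 were mainly those low in B10201. LOC4350401 had 8.49, 7.08 and 8.54, LOC9266169 had 7.60, 6.66 and 8.05, LOC4350883 had 7.10, 6.12 and 7.44, and LOC4349933 had 7.33, 6.23 and 7.47. In each of these 4 genes the control lay nearer to B10301. LOC4350169 was called as higher, at 6.53, 7.59 and 8.89, and it differed between the lines by 1.30 on the log2 scale. Without replicate arrays of a line these differences have no replicate check.

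Further probe sets bore on few of the calls. Of the 78 called genes, 10 had another listed probe set, 15 probe sets in all, and 4 of these, for 4 genes, had a mean above the floor. For 3 of the 4 the direction was that of the chosen probe set in both lines. For LOC4350826, called as higher at 7.11, 8.28 and 8.57, the other probe set gave 9.31, 7.80 and 1.58, the opposite direction, so that gene is uncertain.

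The threshold on mean signal left out some genes with large differences. Just inside it lay LOC4350320, at 5.28, 6.19 and 5.18, and LOC4351006 (LAC20, a laccase symbol), at 5.68, 5.75 and 5.23. LOC4350780, at 3.74, 6.69 and 6.24, was also just inside, and none of these was called. Just outside lay LOC4351029, at 8.35, 3.38 and 4.78, and LOC4350511, at 0.24, 8.42 and 7.77. On the fold threshold, LOC4350496 was just inside with log2 ratios of -1.28 and -1.01, and LOC9272724 just outside with 0.9995 and 1.13.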

How the data were processed

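Signals of Affymetrix rice arrays were deposited on a log2 scale after MAS5, which the submitters' processing notes name; version, detection calls and log base are not given in the sources used here, and the base was read from the range of the values, 0 to 16.36. Of 57194 probe sets, 22436 were listed with 1 gene in the platform annotation, 95 with several and 34663 with none. All 17905 gene identifiers were found in the gene table, 17903 of them on the 12 chromosomes. The table's assembly is of a Japonica rice and no build is named for the values, so it was used for names and gene order only. The order in Guichao2 may differ.

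B10301 values in the displaced stretches were taken from 1 row above. No scaling between arrays was applied. Signals were raised to the floor after the filter. Log2 ratios are each line minus the control. No test was run, since the genes were chosen with this contrast known and a group holds 1 control array; ± is the SD of the 2 lines' ratios. The lines are the replicates of the transgenic group, and their SD measures only the spread between these samples. The genes and lists were chosen with earlier results of these data known. Named genes are, per direction, the 12 called genes with the largest ratio in their less affected line, all called genes of the 3 densest windows, of runs of 3 or more and with a readable symbol or synonym, the 5 per direction that differ most between the lines, and up to 3 per list. Other genes named in the text, namely the neighbours of called genes, the uncalled genes with a symbol, the window and filter limits and the first genes of the chromosome, were picked after their values were seen. The symbol lists were matched with patterns written after the annotation was seen, and 0 columns were unmapped. Lists based on protein motifs and protein identity with chromosome 12 could not be run because no protein table was at hand. The call and window steps were tested on simulated data. Python 3.11.15, numpy 2.4.6, pandas 2.3.3, scipy 1.17.1 and matplotlib 3.10.9 were used.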

Additional observations from a re-analysis of the deposited data

How the results depend on the processing

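At the 2-fold threshold, over 12 other settings, chromosome 11 ranged from 11.7% to 20.9%, and the ratio to the other chromosomes from 1.98 (B10201 alone) to 3.08. With floor and filter at the 25th percentile, 140 genes were called (67 higher, 73 lower; 18.2%), 111 differed between the lines, the densest window held 12, 37 neighbours followed each other and 35 genes were at the floor on one side. With neither filter nor floor these were 177 (87 and 90; 20.9%), 164, 14 and 51, and the share between the lines was above that elsewhere in both settings (14.4% against 11.6%, and 19.4% against 14.9%). As deposited, 104 genes differed between the lines and the B10301 median was -0.0571. Centring shifted ratios by 0.15 and 0.14 where no signal was at the floor, less otherwise, and the medians to -0.22 in B10201 and -0.16 in B10301. A 1.5-fold threshold gave 149 genes (60 higher, 89 lower) and 84 between the lines (13.7% against 11.7% elsewhere), and a 4-fold threshold 24 (16 and 8) and 2. Leaving out a line gave 100 to 106 genes, 16.4% to 17.3%, 39 to 44 higher, 61 to 62 lower, 28 neighbouring genes and 8 to 12 in the densest window. The cause was not tested. Quantile normalization, no floor with the filter kept, mean probe sets, no x_at and s_at probe sets, left-out stretches and, chosen after seeing the data, a filter on any array above the floor called 66 to 89 genes, and windows of 10 and 40 genes held up to 6 and 10. None of the 535 values recomputed for named genes changed sign, and 441 of 448 for called genes stayed called. Part of this was fixed in advance: leaving out a line, or lowering or removing the floor or filter, cannot undo a call. Calls were lost for LOC4350285 after quantile normalization, and for LOC4349819, LOC4350075, LOC4350255, LOC4350271, LOC4350406 and LOC4351046 with B10301 as deposited. Genes that did not pass the filter under a setting are left out of these counts, such as LOC4350038 and LOC4350779 with mean probe sets. No paired analysis was possible because there was 1 control array and no test. Depth is unknown for arrays; signals under the floor give bounds only.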

Other observations

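Among the 235 chromosome 11 genes whose mean signal was not above the floor, 82 were above it on at least 1 array, 33 of them in the control alone and 7 in both lines but not the control. With signals raised to the floor, 11 of the 235 differed from the control by 2-fold or more in each line, 10 lower and 1 higher (4.68%). On the other chromosomes it was 35 of 3272 such genes (1.07%), 31 lower and 4 higher. A filter on the mean of 1 control and 2 line arrays leaves out genes high in the control alone more readily than genes high in both lines, which bears on these directions. They were chosen after their values were seen. LOC4350511 was the 1 higher, with log2 signals of 0.24 (control), 8.42 (B10201) and 7.77 (B10301). LOC4351029 had 8.35, 3.38 and 4.78, so it was at least 7.18-fold lower, and LOC4351132 had 8.01, 4.91 and 1.71, at least 5.67-fold lower. LOC4350662 (7.76, 1.08 and 2.26) and LOC4350563 (7.18, 0.71 and 1.68) were lower by at least 4.77-fold and at least 3.19-fold.

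Of these genes, 2 had a readable name. OsCASPL1U3 (LOC4351033) had 6.87, 4.53 and 4.49, and the CASP-like gene OsCASPL1U2, which was called as lower, carries the next locus number. Pikm2 (LOC4351153), one of the paired nucleotide-binding, leucine-rich repeat genes of the Pik locus, known for resistance to rice blast, had 6.68, 5.23 and 4.06, at least 2.26-fold lower in both lines.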
